A study of Mus musculus with 19 samples.

Results

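The genes described here are 45 named genes of mitosis and chromosome segregation, the machinery that condenses, captures, separates and partitions replicated chromosomes. They were followed in mouse gastrocnemius, a calf muscle, untreated or 3 days after surgery, with its blood supply reduced or not. Before surgery, mice had received an oligonucleotide against the microRNA miR-210 or a scrambled control. The level of miR-210 itself is not among the results given here. A gene was taken as a member when the name on a row of the deposited probe table equalled one of the 45 names, with Cdc2a also read as Cdk1. Of the 45 genes, 44 had at least 1 of 87 probes among the 30774 names in the table, and Nuf2 had none. Detection above background on at least 3 of the 19 arrays was required for a test, and 30 of the 45 members met it, among 14648 genes tested.

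All animals were CD1 mice, an outbred stock, aged 2 months, and RNA from gastrocnemius was hybridised to single-colour Illumina bead arrays. Untreated muscle gave 3 arrays, from animals with no oligonucleotide and no surgery recorded in the labels. The other 16 arrays came from mice given 12 mg/kg of a 15-nucleotide locked nucleic acid oligonucleotide with a phosphorothioate backbone, in 200 µl of saline through the tail vein. Either the oligonucleotide against miR-210 (anti-miR-210) or a scrambled control (scramble) was injected 2 days before dissection of the femoral artery, and muscles were taken 3 days after that surgery. Each oligonucleotide gave 4 arrays of non-ischemic and 4 of ischemic muscle. The labels do not say whether ischemic and non-ischemic muscles came from the same mice, nor how many mice stand behind an array, and the p-values given here rest on the scatter of arrays within a group, which may be partly technical.

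Entry into mitosis is driven by cyclin B with Cdk1 and by polo-like and Aurora kinases. Condensins and topoisomerase II then compact the chromosomes, kinetochores built on the centromeric histone attach them to spindle microtubules, and the spindle checkpoint holds back the anaphase-promoting complex until every kinetochore is attached. Kinesins and midzone proteins order the spindle and split the cell. The fibres of adult muscle are postmitotic, and after injury the dividing cells of muscle are satellite cell progeny, endothelial and stromal cells and infiltrating leukocytes. Transcription of many of these genes peaks late in the cell cycle under the MuvB complexes, B-Myb and FoxM1, through promoter elements called the cell cycle homology region and the CCAAT box. miR-210 is a microRNA induced by hypoxia, and some mitotic genes have been reported as its targets in human cells.

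The sequences below show what was targeted and what the 2 injected oligonucleotides are. Capitals mark the seed of the microRNA (bases 2 to 8) and the oligonucleotide bases that pair with it. The microRNA is from RefSeq, at chr7:141221407-141221428 on the minus strand of GRCm38.p6, and both oligonucleotides are as the labels give them.
mmu-miR-210-3p: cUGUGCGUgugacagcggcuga
anti-miR-210: gctgtcacACGCACA
SCR: cgtctagccacctag
All 15 bases of anti-miR-210 paired with bases 2 to 16 of miR-210-3p, which include the 7 bases of the seed. The longest stretch of the scrambled oligonucleotide that could pair with miR-210-3p was 4 bases, outside the seed.

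RefSeq promoter windows of GRCm38.p6, from 250 bases before to 50 bases after an annotated start, were found for 38 of the 45 members. Searched on both strands were the cell cycle homology region TTTGAA and its variant TTCGAA, the CCAAT box, and the E2F sites TTCCCGC and TTGGCGC. The variant reads the same on both strands, and the CCAAT box, read as ATTGG on the other strand, can share letters with the second E2F site. A cell cycle homology region or its variant occurred in 30 of the 38 genes (78.9%), against 21.7% of the 27025 genes with a window. A CCAAT box occurred in 29 (76.3%), against 41.1% of all genes, and both kinds together in 27 (71.1%), against 8.61%. Either E2F site occurred in 7 genes (18.4%), against 7.79%. Of windows of the same length, 32851 in all, 7.52% held both a homology region and a CCAAT box. The windows of members were also richer in G and C, with a median of 59% against 52.7%. The 5 windows below are shown because the results turn on their genes, with every match in capitals. Prc1 and Cdc20 rose strongly, and Aurka did not pass the test with ischemia. Nusap1 and Kif23 were called between the oligonucleotides after ischemia, and both calls were lost under several other settings.
Prc1, chr7:80294201-80294500, plus strand: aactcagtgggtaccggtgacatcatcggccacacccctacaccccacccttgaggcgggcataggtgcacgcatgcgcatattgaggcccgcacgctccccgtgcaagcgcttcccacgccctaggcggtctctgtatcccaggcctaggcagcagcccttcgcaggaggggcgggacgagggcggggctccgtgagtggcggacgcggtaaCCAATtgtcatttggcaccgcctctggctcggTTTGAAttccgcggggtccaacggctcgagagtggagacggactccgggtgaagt
Cdc20, chr4:118437294-118437593, minus strand: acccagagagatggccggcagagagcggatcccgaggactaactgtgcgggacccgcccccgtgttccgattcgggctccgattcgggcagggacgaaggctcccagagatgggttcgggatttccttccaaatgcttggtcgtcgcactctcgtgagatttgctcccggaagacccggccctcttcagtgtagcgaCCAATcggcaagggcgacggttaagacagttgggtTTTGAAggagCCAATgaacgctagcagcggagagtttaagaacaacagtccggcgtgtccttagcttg
Kif23, chr9:61946750-61947049, minus strand: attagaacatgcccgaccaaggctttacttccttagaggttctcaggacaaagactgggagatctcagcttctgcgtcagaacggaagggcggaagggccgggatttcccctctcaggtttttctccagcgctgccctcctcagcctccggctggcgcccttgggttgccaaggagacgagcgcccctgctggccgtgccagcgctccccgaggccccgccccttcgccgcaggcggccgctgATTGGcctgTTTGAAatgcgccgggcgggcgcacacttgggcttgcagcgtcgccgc
Nusap1, chr2:119618048-119618347, plus strand: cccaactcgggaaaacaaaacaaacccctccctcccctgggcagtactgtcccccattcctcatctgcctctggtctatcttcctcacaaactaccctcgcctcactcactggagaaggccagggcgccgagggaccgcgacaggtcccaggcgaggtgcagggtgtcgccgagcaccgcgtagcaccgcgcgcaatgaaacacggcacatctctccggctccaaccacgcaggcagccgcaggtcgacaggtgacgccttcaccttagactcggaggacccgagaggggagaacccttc
Aurka, chr2:172370521-172370820, minus strand: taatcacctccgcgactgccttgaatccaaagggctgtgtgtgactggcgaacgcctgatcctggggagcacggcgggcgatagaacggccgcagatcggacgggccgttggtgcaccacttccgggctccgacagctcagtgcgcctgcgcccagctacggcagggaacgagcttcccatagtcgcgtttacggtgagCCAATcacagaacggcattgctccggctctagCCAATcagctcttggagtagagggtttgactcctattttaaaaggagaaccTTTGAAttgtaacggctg
The Prc1, Cdc20, Kif23 and Aurka windows each held a homology region and a CCAAT box, and the Nusap1 window held none of the motifs searched. Of the 12 members that had a window but were not tested on the arrays, 10 held both kinds of motif, as did 17 of the 26 that were tested. These matches describe the letters only.

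Values below are normalized log2 signals, on which the lowest signal counted as detected lay between 4.40 and 4.65 depending on the array. Mean raw signal ran from 123.6 to 297.6 between arrays and 32.1% to 42.3% of probes were detected, and no 2 arrays held identical values. Muscle fibre markers (Ckm, Mb, Acta1, Pygm, Tnnt3 and Myh4) were detected on every array. Liver transcripts were high on 4 arrays, all 3 untreated arrays and scramble non-ischemic replicate 1, with summed signals of 2550 to 33564 against 113.0 to 133.3 on the other 15. Each result was therefore also computed without untreated replicates 2 and 3 and scramble non-ischemic replicate 1 and, chosen after seeing the data, without all 4, which leaves no comparison with untreated muscle. Levels of different probes are not on a common scale, so each gene is compared only with itself.

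Ischemia raised most of the mitosis genes that could be measured, under both oligonucleotides. After scramble, 29 of the 45 members were called higher (limma, Benjamini-Hochberg adjusted p under 0.05 over all 14648 genes), 0 lower, 1 was tested and not called, and 15 could not be tested. Of all genes tested, 27% were called higher there and 24.6% lower. After anti-miR-210, 27 were called higher, 0 lower and 3 not called, where 26.5% of all genes were called higher and 24.4% lower. Both comparisons called 27 of the members higher, and 21.9% of all genes. The median log2 change of the 30 tested members was 2.99 after scramble and 2.79 after anti-miR-210, or 2.64 and 2.58 with bounds in place of changes for the 15 and 13 members undetected on every non-ischemic array of the arm, and the median over all genes was 0.01 in both. Ischemic and non-ischemic arrays did not overlap for 27 members after scramble and 27 after anti-miR-210, where 25% and 23.3% of all genes lay wholly higher.

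The counts and medians over tested members are tied to the detection filter. Of the 30, 17 met it only through ischemic arrays, so they had to be higher there and their count supports nothing. The medians and the counts without overlap given above include these 17 and carry the same limit, as do the counts by role given below. The other 13 were detected on at least 3 of the 11 arrays without ischemia, and 12 of these were called higher after scramble and 11 after anti-miR-210. Among the 12275 genes detected in that way, 26.9% and 26.7% were called higher. The members were chosen with earlier results of these data known. The counts set beside shares of all genes therefore describe the list and are no test of it. With no detection filter, 28 of the 44 members with a probe were called higher after scramble and 26 after anti-miR-210, with 0 lower in either, where 13.1% and 12.8% of 28898 genes were.

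**Figure D1:**
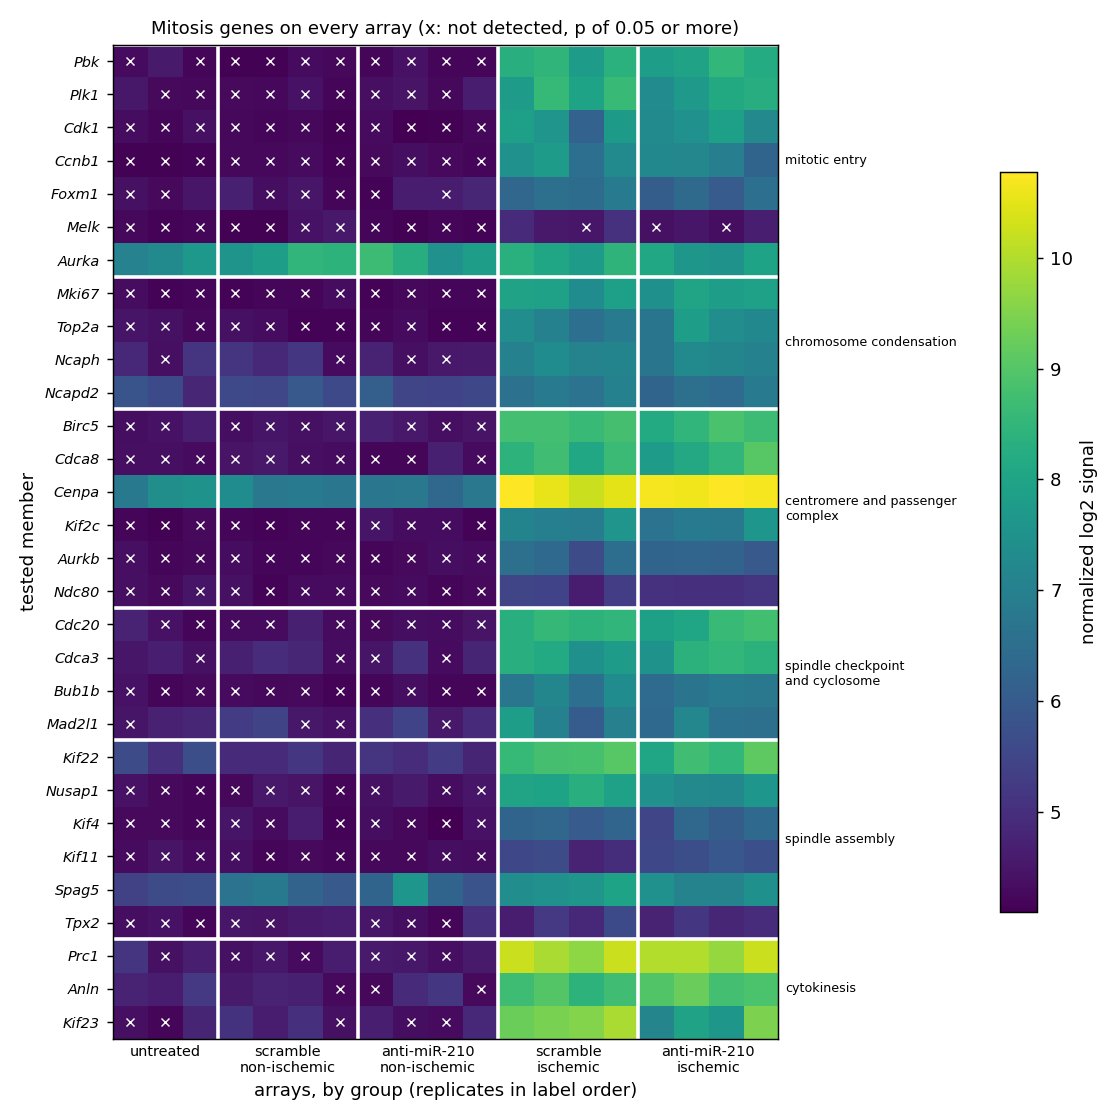
Normalized log2 signal (colour) of the 30 tested members (rows, by role) on all 19 arrays (columns, by group), with a cross where the probe was not detected. Signals of nearly all members stand higher on the 8 ischemic arrays, while Aurka reads between 7.07 and 8.68 on every array.

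Among the genes of mitotic entry, 6 of 9 rose after scramble and 5 of 9 after anti-miR-210, with Aurka not called in either and Ccna2 and Ccnb2 not tested. Only Aurka and Foxm1 met the detection filter without the ischemic arrays. Pbk encodes a kinase that is active in mitosis. Pbk read 4.29, 4.59 and 4.20 in untreated muscle, 4.15, 4.15, 4.31 and 4.24 after scramble without ischemia, and 4.21, 4.42, 4.18 and 4.23 after anti-miR-210 without ischemia. With ischemia it read 8.29, 8.46, 7.78 and 8.37 after scramble and 7.81, 7.94, 8.52 and 8.21 after anti-miR-210, so every ischemic array lay above every other array. Pbk was at least 12.6-fold higher (adjusted p = 1.68e-12) after scramble and at least 11.6-fold higher (adjusted p = 2.52e-12) after anti-miR-210. Such a bound sets the ischemic mean against the higher of the probe's own and the lowest detected signal of each undetected array. The adjusted p printed beside any bound is that of the log2 change in the limma fit, and the bound itself was not tested. A log2 change is given wherever at least 1 of the 4 non-ischemic arrays of the arm detected the probe, and where fewer than 4 did, their number follows, since the rest of that baseline is background.

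Plk1, polo-like kinase 1, acts from mitotic entry to cytokinesis. Plk1 read 4.53, 4.28 and 4.26 in untreated muscle, 4.27, 4.25, 4.44 and 4.22 after scramble without ischemia, and 4.38, 4.46, 4.25 and 4.64 after anti-miR-210 without ischemia. In ischemic muscle its signal was 7.78, 8.56, 7.97 and 8.61 after scramble and 7.31, 7.71, 8.16 and 8.25 after anti-miR-210. The ischemic arrays again did not overlap the rest, and Plk1 was at least 12.7-fold higher (adjusted p = 2.75e-11) after scramble and showed a log2 change of 3.42 ± 0.20 (adjusted p = 1.38e-10, detected on 1 of 4 non-ischemic arrays) after anti-miR-210, where the error is the standard error of the fit. Cdk1 is the catalytic partner of cyclin B. Cdk1 read 4.32, 4.22 and 4.40 in untreated muscle, 4.23, 4.18, 4.26 and 4.15 after scramble without ischemia, and 4.29, 4.11, 4.14 and 4.25 after anti-miR-210 without ischemia, none of them detected. Its ischemic values were 7.86, 7.58, 6.19 and 7.73 after scramble and 7.26, 7.47, 7.87 and 7.23 after anti-miR-210, with scramble replicate 3 well below the other 3 scramble arrays. Cdk1 was at least 6.83-fold higher (adjusted p = 8.95e-09) after scramble and at least 7.36-fold higher (adjusted p = 5.42e-09) after anti-miR-210.

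Ccnb1, cyclin B1, was undetected on all 11 arrays without ischemia and at least 6.49-fold higher (adjusted p = 1.82e-09) after scramble and at least 4.99-fold higher (adjusted p = 1.08e-08) after anti-miR-210. Foxm1, a transcription factor of mitotic genes, showed a log2 change of 2.10 ± 0.17 (adjusted p = 6.13e-09, detected on 1 of 4 non-ischemic arrays) and of 1.71 ± 0.17 (adjusted p = 9.02e-08, detected on 2 of 4 non-ischemic arrays) in the same order. Melk, a kinase of dividing cells, stayed near background throughout. It was at least 1.14-fold higher (adjusted p = 0.011) after scramble, a call that was lost without scramble ischemic replicate 4 (adjusted p = 0.0817), and was not called after anti-miR-210 (adjusted p = 0.0838).

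Aurka, the Aurora kinase of centrosomes and spindle poles, was the 1 tested member called in neither arm. Aurka read 7.07, 7.26 and 7.66 in untreated muscle, 7.55, 7.80, 8.49 and 8.41 after scramble without ischemia, and 8.68, 8.25, 7.48 and 7.84 after anti-miR-210 without ischemia. Ischemic arrays gave 8.33, 8.02, 7.80 and 8.44 after scramble and 8.09, 7.64, 7.53 and 7.98 after anti-miR-210, within the range of the non-ischemic arrays. The log2 change was 0.09 ± 0.25 after scramble (95% interval −0.45 to 0.62, adjusted p = 0.813) and −0.25 ± 0.25 after anti-miR-210 (95% interval −0.78 to 0.28, adjusted p = 0.439). It was detected on all 19 arrays through its single probe, and its small change took either sign depending on the scaling and the arrays included.

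Chromosome condensation genes rose wherever they could be tested, 4 of 7 in both arms, and the condensin subunits Smc2, Smc4 and Ncapg were not tested. Of the tested genes, Mki67 and Top2a met the detection filter only through ischemic arrays. Mki67 encodes Ki-67, which coats mitotic chromosomes and is the common marker of cycling cells. Mki67 read 4.33, 4.18 and 4.22 in untreated muscle, 4.17, 4.21, 4.23 and 4.32 after scramble without ischemia, and 4.17, 4.23, 4.22 and 4.22 after anti-miR-210 without ischemia, none detected. On ischemic arrays it reached 7.93, 7.91, 7.36 and 7.86 after scramble and 7.46, 8.00, 7.85 and 7.93 after anti-miR-210. Mki67 was at least 9.19-fold higher (adjusted p = 1.32e-12) after scramble and at least 9.36-fold higher (adjusted p = 7.59e-13) after anti-miR-210, but its 2 other probes were undetected on all 19 arrays.

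Top2a, topoisomerase IIα, disentangles sister chromatids. Top2a read 4.47, 4.39 and 4.24 in untreated muscle, 4.40, 4.32, 4.16 and 4.16 after scramble without ischemia, and 4.20, 4.29, 4.16 and 4.15 after anti-miR-210 without ischemia, again none detected. With ischemia the values were 7.36, 7.04, 6.54 and 6.89 after scramble and 6.69, 7.85, 7.37 and 7.21 after anti-miR-210. Top2a was at least 5.25-fold higher (adjusted p = 2.07e-09) after scramble and at least 6.49-fold higher (adjusted p = 3.38e-10) after anti-miR-210, with no overlap. Ncaph, a condensin I subunit, was detectable in muscle without ischemia. Ncaph read 4.88, 4.38 and 5.09 in untreated muscle, 5.11, 4.88, 5.16 and 4.31 after scramble without ischemia, and 4.77, 4.37, 4.57 and 4.59 after anti-miR-210 without ischemia. Its ischemic signals, 7.04, 7.35, 7.08 and 7.10 after scramble and 6.70, 7.29, 7.15 and 7.04 after anti-miR-210, lay above all of these, with a log2 change of 2.28 ± 0.19 (adjusted p = 1.24e-08, detected on 3 of 4 non-ischemic arrays) and of 2.47 ± 0.19 (adjusted p = 4.69e-09, detected on 2 of 4 non-ischemic arrays). A further probe carrying BRRN1, an older name of Ncaph that the naming rule leaves out, also read higher with ischemia, by 1.47 and 1.89 on the log2 scale. Ncapd2, another condensin I subunit, showed a log2 change of 1.12 ± 0.20 (adjusted p = 0.000125) and of 0.87 ± 0.20 (adjusted p = 0.0014).

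Of 9 genes of the centromere, kinetochore and chromosomal passenger complex, 6 rose in both arms, Cenpe and Cenpf were not tested, and Nuf2 had no probe. All of the 6 but Cenpa met the detection filter only through ischemic arrays, so their count supports nothing. The passenger complex corrects faulty attachments and drives cytokinesis, and Birc5 (survivin) and Cdca8 (borealin) are 2 of its subunits. Birc5 read 4.34, 4.43 and 4.66 in untreated muscle, 4.36, 4.47, 4.39 and 4.51 after scramble without ischemia, and 4.70, 4.56, 4.38 and 4.45 after anti-miR-210 without ischemia. Ischemic signals of Birc5 were 8.77, 8.77, 8.62 and 8.80 after scramble and 8.17, 8.50, 8.85 and 8.69 after anti-miR-210, all far above. Birc5 was at least 18-fold higher (adjusted p = 1.21e-13) after scramble and showed a log2 change of 4.03 ± 0.14 (adjusted p = 2.68e-13, detected on 1 of 4 non-ischemic arrays) after anti-miR-210. All 3 of its probes were detected with ischemia on every array and rose in both arms, by 2.81 or more on the log2 scale.

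Cdca8 read 4.37, 4.38 and 4.30 in untreated muscle, 4.45, 4.57, 4.36 and 4.32 after scramble without ischemia, and 4.21, 4.20, 4.68 and 4.31 after anti-miR-210 without ischemia. With ischemia Cdca8 gave 8.41, 8.74, 8.07 and 8.66 after scramble and 7.79, 8.13, 8.50 and 9.03 after anti-miR-210. It was at least 14.9-fold higher (adjusted p = 2.75e-11) after scramble and showed a log2 change of 4.01 ± 0.21 (adjusted p = 2.48e-11, detected on 1 of 4 non-ischemic arrays) after anti-miR-210. Cenpa, the histone H3 variant that marks centromeres, was detected on every array. Cenpa read 6.79, 7.41 and 7.51 in untreated muscle, 7.35, 6.78, 6.88 and 6.71 after scramble without ischemia, and 6.72, 6.78, 6.33 and 6.78 after anti-miR-210 without ischemia. Its ischemic signals were 10.78, 10.55, 10.25 and 10.52 after scramble and 10.68, 10.64, 10.78 and 10.68 after anti-miR-210, the 2 ranges lying far apart. This amounted to a log2 change of 3.59 ± 0.18 (adjusted p = 1.44e-11) after scramble and a log2 change of 4.04 ± 0.18 (adjusted p = 3.13e-12) after anti-miR-210, both measured above background on each side. Kif2c, a kinetochore kinesin that removes tubulin, was at least 5.99-fold higher (adjusted p = 2.23e-10) and at least 5.26-fold higher (adjusted p = 7.71e-10). Aurkb, the kinase of the passenger complex, was at least 3.29-fold higher (adjusted p = 5.35e-09) and at least 3.04-fold higher (adjusted p = 1.2e-08). Ndc80, which binds microtubules at kinetochores, had the smallest log2 change of the 6 and was at least 1.57-fold higher (adjusted p = 4.38e-05) and at least 1.39-fold higher (adjusted p = 0.000212).

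Of 7 spindle checkpoint and cyclosome genes, 4 rose in both arms, while Bub1, Ttk and Ube2c were not tested. Cdc20 and Bub1b met the detection filter only through ischemic arrays, while Cdca3 and Mad2l1 met it without them. Cdc20 activates the anaphase-promoting complex and is the protein that the checkpoint holds. Cdc20 read 4.76, 4.43 and 4.21 in untreated muscle, 4.31, 4.28, 4.69 and 4.30 after scramble without ischemia, and 4.28, 4.34, 4.34 and 4.45 after anti-miR-210 without ischemia. With ischemia its values were 8.28, 8.56, 8.42 and 8.49 after scramble and 7.89, 8.03, 8.61 and 8.75 after anti-miR-210. They did not overlap, with a log2 change of 4.04 ± 0.18 (adjusted p = 3.42e-12, detected on 1 of 4 non-ischemic arrays) after scramble, and Cdc20 was at least 13.3-fold higher (adjusted p = 3.51e-12) after anti-miR-210. Of its 4 probes, 3 rose by 2.66 or more and 1 stayed near background.

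Cdca3 promotes mitotic entry and is destroyed through the anaphase-promoting complex. Cdca3 read 4.51, 4.66 and 4.39 in untreated muscle, 4.67, 4.96, 4.82 and 4.32 after scramble without ischemia, and 4.49, 5.06, 4.29 and 4.78 after anti-miR-210 without ischemia. Ischemic arrays gave 8.30, 8.18, 7.45 and 7.77 after scramble and 7.53, 8.40, 8.51 and 8.38 after anti-miR-210, anti-miR-210 replicate 1 standing below its 3 companions. The changes were 3.23 and 3.55 on the log2 scale (adjusted p = 1.77e-09 and 4.93e-10), with the probe detected on 3 and 2 of the 4 non-ischemic arrays. Bub1b encodes BubR1, a component of the checkpoint. Bub1b read 4.42, 4.21 and 4.28 in untreated muscle, 4.30, 4.25, 4.27 and 4.16 after scramble without ischemia, and 4.20, 4.34, 4.18 and 4.18 after anti-miR-210 without ischemia, all undetected. With ischemia it read 6.73, 7.16, 6.55 and 7.34 after scramble and 6.44, 6.68, 6.83 and 6.78 after anti-miR-210, and it was at least 5.2-fold higher (adjusted p = 6.76e-11) after scramble and at least 4.29-fold higher (adjusted p = 2.04e-10) after anti-miR-210. Mad2l1, the checkpoint protein Mad2, showed a log2 change of 2.05 ± 0.31 (adjusted p = 1.51e-05, detected on 2 of 4 non-ischemic arrays) and of 1.70 ± 0.31 (adjusted p = 0.000122, detected on 3 of 4 non-ischemic arrays).

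Among 7 spindle assembly genes, 6 rose after scramble and 5 after anti-miR-210, and Hmmr was not tested. Kif11, Nusap1 and Kif4 met the detection filter only through ischemic arrays, while Kif22, Spag5 and Tpx2 met it without them. Kif22 is a chromokinesin that pushes chromosome arms toward the spindle equator. Kif22 read 5.66, 5.00 and 5.70 in untreated muscle, 4.90, 4.89, 5.16 and 4.79 after scramble without ischemia, and 5.13, 4.94, 5.26 and 4.80 after anti-miR-210 without ischemia, all detected. Ischemic arrays gave 8.58, 8.81, 8.82 and 9.03 after scramble and 8.04, 8.74, 8.52 and 9.13 after anti-miR-210, with a log2 change of 3.88 ± 0.20 (adjusted p = 3.23e-11) and of 3.57 ± 0.20 (adjusted p = 7.77e-11). Nusap1 binds and bundles spindle microtubules. Nusap1 read 4.42, 4.27 and 4.21 in untreated muscle, 4.24, 4.57, 4.46 and 4.23 after scramble without ischemia, and 4.41, 4.58, 4.33 and 4.50 after anti-miR-210 without ischemia. In ischemic muscle it read 7.99, 7.97, 8.29 and 7.93 after scramble and 7.47, 7.23, 7.22 and 7.61 after anti-miR-210. It was at least 11.1-fold higher (adjusted p = 4.95e-13) after scramble and showed a log2 change of 2.93 ± 0.13 (adjusted p = 3.51e-12, detected on 1 of 4 non-ischemic arrays) after anti-miR-210. Kif4 is a chromokinesin of chromosome arms and the midzone. Kif4 read 4.27, 4.26 and 4.23 in untreated muscle, 4.48, 4.29, 4.60 and 4.16 after scramble without ischemia, and 4.35, 4.24, 4.10 and 4.42 after anti-miR-210 without ischemia. Its ischemic values were 6.25, 6.31, 6.01 and 6.27 after scramble and 5.49, 6.34, 6.06 and 6.39 after anti-miR-210, with a log2 change of 1.83 ± 0.17 (adjusted p = 3.89e-08, detected on 1 of 4 non-ischemic arrays) after scramble and at least 2.8-fold higher (adjusted p = 5.03e-08) after anti-miR-210.

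Kif11, the kinesin that pushes spindle poles apart, was at least 1.59-fold higher (adjusted p = 5.01e-05) after scramble and at least 2.21-fold higher (adjusted p = 5.32e-07) after anti-miR-210. Spag5 (astrin) was detected on all 19 arrays and showed a log2 change of 1.20 ± 0.28 (adjusted p = 0.00151) and of 0.79 ± 0.28 (adjusted p = 0.0253). The second of these calls was lost without any 1 of anti-miR-210 non-ischemic replicates 1, 3 and 4 and ischemic replicates 1 and 4 (adjusted p = 0.0606 to 0.107). Tpx2, the activator of Aurora A on the spindle, showed a log2 change of 0.51 ± 0.19 (adjusted p = 0.0305, detected on 2 of 4 non-ischemic arrays) after scramble and 0.40 (adjusted p = 0.085, not called, detected on 1 of 4 non-ischemic arrays) after anti-miR-210. Its call was lost without any 1 of scramble non-ischemic replicates 1 and 2 and ischemic replicates 2 and 4 (adjusted p = 0.0608 to 0.133), and it was gained after anti-miR-210 without non-ischemic replicate 4 (adjusted p = 0.017).

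Cytokinesis genes rose in 3 of 6 cases in both arms, and Kif20a, Ect2 and Racgap1 were not tested. The 3 tested genes all met the detection filter without the ischemic arrays. Prc1 crosslinks the antiparallel microtubules of the midzone. Prc1 read 5.13, 4.39 and 4.67 in untreated muscle, 4.40, 4.53, 4.29 and 4.62 after scramble without ischemia, and 4.58, 4.54, 4.38 and 4.59 after anti-miR-210 without ischemia. With ischemia the values were 10.23, 9.94, 9.65 and 10.24 after scramble and 10.00, 10.01, 9.72 and 10.25 after anti-miR-210. The 2 sets of arrays lay 4.52 or more log2 units apart, with a log2 change of 5.55 ± 0.17 (adjusted p = 9.09e-14, detected on 1 of 4 non-ischemic arrays) and of 5.47 ± 0.17 (adjusted p = 1.18e-13, detected on 1 of 4 non-ischemic arrays); the other Prc1 probe was detected on 2 arrays in all. Anln, anillin, scaffolds the contractile ring. Anln read 4.73, 4.63 and 5.20 in untreated muscle, 4.59, 4.75, 4.70 and 4.26 after scramble without ischemia, and 4.25, 4.91, 5.15 and 4.27 after anti-miR-210 without ischemia. Ischemic arrays gave 8.70, 8.98, 8.43 and 8.74 after scramble and 8.95, 9.25, 8.78 and 8.89 after anti-miR-210, with a log2 change of 4.14 ± 0.20 (adjusted p = 1.48e-11, detected on 3 of 4 non-ischemic arrays) and of 4.32 ± 0.20 (adjusted p = 6.64e-12, detected on 2 of 4 non-ischemic arrays), through 1 of 3 probes.

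Kif23 encodes a kinesin of the centralspindlin complex. Kif23 read 4.38, 4.20 and 4.79 in untreated muscle, 5.07, 4.63, 5.01 and 4.40 after scramble without ischemia, and 4.66, 4.36, 4.30 and 4.83 after anti-miR-210 without ischemia. In ischemic muscle it read 9.28, 9.43, 9.55 and 9.93 after scramble and 7.14, 7.95, 7.64 and 9.46 after anti-miR-210. The 4 anti-miR-210 arrays spread widely, from 7.14 to 9.46, while the 4 scramble arrays stayed between 9.28 and 9.93. Changes with ischemia were 4.77 ± 0.34 after scramble and 3.51 ± 0.34 after anti-miR-210 (adjusted p = 1.54e-09 and 7.66e-08), its probe being detected on 3 and 2 of the 4 non-ischemic arrays. Another Kif23 probe also rose, to 6.53 to 7.25 after scramble and 6.23 to 7.13 after anti-miR-210. A probe carrying KNSL5, an older name of Kif23 that the naming rule leaves out, did not. It read 7.11 to 7.53 without and 6.28 to 6.79 with ischemia after scramble. After anti-miR-210 it read 7.03 to 8.23 and 6.69 to 8.21.

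**Figure D2:**
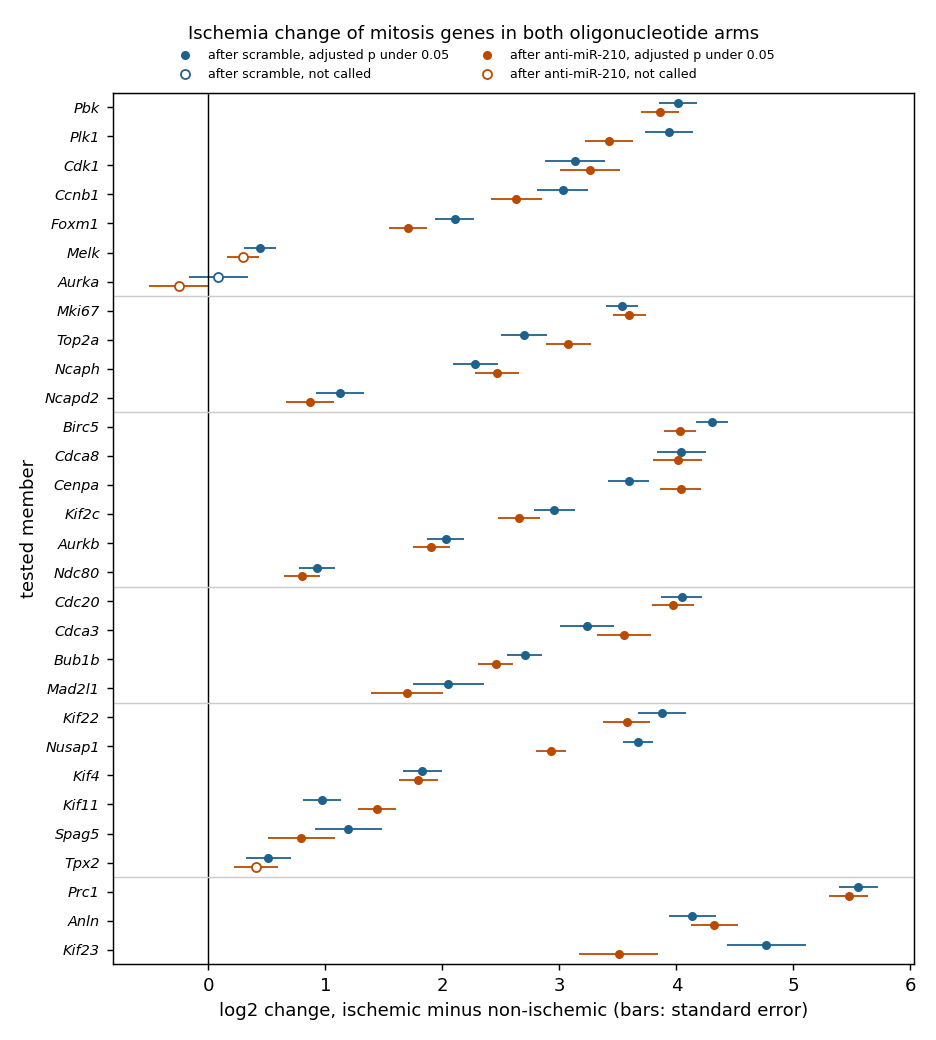
Log2 change with ischemia (x axis, bars are standard errors) of the 30 tested members (rows, by role) after scramble (blue) and after anti-miR-210 (orange), with open points where the adjusted p was 0.05 or more. Changes lie between 0.29 and 5.55 in both arms for every member but Aurka, at 0.09 and −0.25.

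The 14 members with a probe that were not tested gave no level to compare. They were Ccna2, Ccnb2, Smc2, Smc4, Ncapg, Cenpe, Cenpf, Bub1, Ttk, Ube2c, Hmmr, Kif20a, Ect2 and Racgap1. For 7 of them no probe was detected on any array, and for the other 7 the best probe was detected on 1 or 2 arrays. Raw signals of their brightest probes ran from 65.8 to 89.3 over all 19 arrays, ischemic ones included. These include cyclin A2, cyclin B2 and the core condensin ATPases Smc2 and Smc4. Partners within a complex therefore split between measured and unmeasured: Kif23 rose while Racgap1, the other centralspindlin subunit, was undetected. Of the 27 members with several probes, some had only 1 that responded, so an undetected probe does not show that its transcript was low. Probes carrying older names of Smc4, Nuf2 and Kif11, which the naming rule leaves out, were detected on 2, 0 and 0 arrays.

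Other genes of the same processes, from lists chosen with earlier results of these data known, are counted here against the same shares of all genes, 27% higher and 24.6% lower after scramble and 26.5% and 24.4% after anti-miR-210. Their calls passed the same detection filter as the members' and are given as counts with no test of the lists. Among other mitotic entry genes, 8 of 14 were tested, 7 rose after scramble and 5 after anti-miR-210. Gtse1, a microtubule-associated regulator of late cell cycle, was at least 6.17-fold higher (adjusted p = 3.95e-09) after scramble and showed a log2 change of 2.60 ± 0.22 (adjusted p = 1.47e-08, detected on 1 of 4 non-ischemic arrays) after anti-miR-210. Mybl2 (B-Myb) was at least 2.97-fold higher (adjusted p = 2.67e-06) and at least 2.85-fold higher (adjusted p = 3.02e-06). Bora, an activator of Aurora A, showed a log2 change of 1.19 ± 0.18 (adjusted p = 1.6e-05, detected on 3 of 4 non-ischemic arrays) and of 1.22 ± 0.18 (adjusted p = 1.25e-05, detected on 2 of 4 non-ischemic arrays). Pkmyt1, an inhibitory kinase of Cdk1, was at least 1.23-fold higher (adjusted p = 0.00127) and at least 1.18-fold higher (adjusted p = 0.00599).

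Of 34 other centromere and kinetochore genes, 24 were tested; 17 rose after scramble and 14 after anti-miR-210, with 0 and 1 lower. Incenp, the scaffold of the passenger complex, showed a log2 change of 3.36 ± 0.18 (adjusted p = 6.1e-11, detected on 1 of 4 non-ischemic arrays) and of 2.82 ± 0.18 (adjusted p = 5.19e-10, detected on 3 of 4 non-ischemic arrays). Mis18a and Hjurp, which load Cenpa onto centromeres, changed by 2.55 and 2.83 and by 2.82 and 2.44 on the log2 scale, and Cenpt by 2.78 and 2.42, all called. Cenpq was called lower after anti-miR-210 (−0.54, adjusted p = 0.0408), not after scramble (−0.45, adjusted p = 0.0878). The call was lost without any 1 of anti-miR-210 non-ischemic replicates 2, 3 and 4 and ischemic replicates 1, 2 and 4 (adjusted p = 0.0547 to 0.135), and one after scramble appeared without ischemic replicate 4 (adjusted p = 0.0393).

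Of 18 other checkpoint and anaphase genes, 15 were tested, 3 rose and 4 fell after scramble, and 4 rose and 4 fell after anti-miR-210, shares near those of all genes. Espl1 (separase) was at least 2.47-fold higher (adjusted p = 1.84e-07) and at least 2.3-fold higher (adjusted p = 7.05e-07). Fzr1, the activator that follows Cdc20, changed by 1.70 and 0.89, and Cdc23, a core subunit of the anaphase-promoting complex, by 0.56 and 0.96, all called. Pttg1 (securin), undetected on all 4 non-ischemic anti-miR-210 arrays, was called higher only in that arm (adjusted p = 0.0232), with no fold given because its bound did not exceed 1. Bub3, a checkpoint component, fell by 0.80 after scramble and by 0.99 after anti-miR-210, and Mad2l2 fell by 0.73 and 0.99 on the log2 scale. After scramble, the Cdc23 call was lost without any 1 of non-ischemic replicates 2 and 4 and ischemic replicates 1 and 3 (adjusted p = 0.0513 to 0.0802). The Mad2l2 call was lost there without any 1 of non-ischemic replicates 2, 3 and 4 and ischemic replicate 3 (adjusted p = 0.0567 to 0.111). The Pttg1 call was lost without any 1 of anti-miR-210 non-ischemic replicates 1 and 3 and ischemic replicate 1 (adjusted p = 0.0507 to 0.0607).

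Among 23 other spindle and cytokinesis genes, 19 were tested, and 12 rose and 1 fell in each arm. Kif15, a spindle kinesin that works beside Kif11, was at least 6.01-fold higher (adjusted p = 5.16e-10) and at least 4.24-fold higher (adjusted p = 2.97e-09). Kif18b, Troap and Cit (citron kinase) were at least 3.92-fold, 3.89-fold and 2.66-fold higher after scramble and at least 3.08-fold, 2.57-fold and 2.34-fold higher after anti-miR-210. Haus1, a subunit of augmin, fell by 0.56 and 1.35, the first call being lost without any 1 of scramble non-ischemic replicates 1 and 4 and ischemic replicates 2 and 4 (adjusted p = 0.0561 to 0.15). Cohesin and other condensin genes, 14 tested of 15, counted 6 higher and 1 lower after scramble and 5 higher and 3 lower after anti-miR-210. That is 42.9% and 35.7% of those tested called higher, against 27% and 26.5% of all genes. Of all genes, 24.6% and 24.4% were called lower. Smc1a and Pds5a changed by 1.20 and 1.17 and by 0.81 and 1.11, all called, the Pds5a probe being detected on 3 and 1 of the 4 non-ischemic arrays. The cohesion factor Cdca5 showed a log2 change of 0.75 ± 0.17 (adjusted p = 0.00113, detected on 1 of 4 non-ischemic arrays) after scramble and was at least 1.54-fold higher (adjusted p = 0.000168) after anti-miR-210, and Esco2, another, was at least 1.43-fold higher (adjusted p = 5.65e-05) and at least 1.25-fold higher (adjusted p = 0.00205). Pds5b fell by 0.75 and 0.52, and Smc3 was called lower after anti-miR-210 only (−0.09, adjusted p = 0.831 after scramble, −0.84, adjusted p = 0.0203 after anti-miR-210). The second Pds5b call was lost without anti-miR-210 non-ischemic replicate 2 (adjusted p = 0.0597) and its value was 0.045 under plain median scaling. The Smc3 call was lost without any 1 of anti-miR-210 non-ischemic replicate 4 and ischemic replicates 2 and 3 (adjusted p = 0.0535 to 0.0706).

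Of 18 DREAM, MuvB and E2F genes, 13 were tested, and 5 rose and 2 fell after scramble, against 6 and 2 after anti-miR-210. Those called higher were 38.5% and 46.2% of the tested genes, against 27% and 26.5% of all genes. The activator E2f1 showed a log2 change of 3.90 ± 0.20 (adjusted p = 2.59e-11) and of 3.40 ± 0.20 (adjusted p = 1.11e-10, detected on 3 of 4 non-ischemic arrays), and E2f2 a log2 change of 2.08 ± 0.21 (adjusted p = 1.42e-07) and of 1.96 ± 0.21 (adjusted p = 2.93e-07). Rbl1 (p107) changed by 0.63 and 0.97, both called (detected on 3 and 1 of the 4 non-ischemic arrays), and E2f4 by 0.87, called, and 0.26, not called. Under plain median scaling the E2f4 calls changed places (0.43, adjusted p = 0.281 after scramble, and 0.98, adjusted p = 0.0119 after anti-miR-210), and with array brightness as a covariate the first was lost (0.83, adjusted p = 0.0982). E2f6, a repressor, fell by 1.92 and 1.78, and Tfdp2, an E2F partner, fell by 1.83 in both arms.

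Cell type markers changed with ischemia to an extent that differed by list, and their part in the result was not tested. Of all genes, 27% were called higher and 24.6% lower after scramble, and 26.5% and 24.4% after anti-miR-210. Macrophage markers (Cd68, Csf1r, Itgam, Cd14, Adgre1 and Lyz2 in current names) rose in 5 of 6 cases after scramble and 6 of 6 after anti-miR-210. Their summed signal, on the linear scale, went from 237.1 to 384.8 up to 3030 to 9619 after scramble, and from 267.3 to 346.4 up to 3919 to 14579 after anti-miR-210. Neutrophil markers rose in 5 of 5 cases in both arms, with summed signals from 168.6 to 409.7 up to 1936 to 7868 after scramble and from 111.5 to 600.5 up to 957.6 to 4037 after anti-miR-210. Endothelial markers rose in 3 and 2 of 5 cases and fibroblast markers in 2 and 5 of 5. The change was negative for 1 endothelial marker after scramble and 2 after anti-miR-210, with 0 called lower. Muscle fibre markers summed to 52871 to 54202 without and 27220 to 39798 with ischemia after scramble, and 5 of 6 fell, against 3 of 6 after anti-miR-210. In each arm 1 of the 6 was called higher, by 0.45 after scramble and 0.34 after anti-miR-210 on the log2 scale. Of the satellite cell and myoblast markers, Pax7 and Myf5 were detected on 0 arrays, while the other 3 were detected on every array. The list summed to 525.4 to 813.3 in scramble ischemic muscle, against 273.0 to 359.6 without ischemia. In the anti-miR-210 arm it summed to 461.0 to 857.0, against 269.9 to 385.0. Of the 3 tested, 2 were called higher after scramble and 1 after anti-miR-210, with 0 lower. The lowest change after scramble was −0.27. T and B cell markers were at background for all 5 probes on the scramble non-ischemic arrays, and 0 to 1 of the 5 were detected on scramble ischemic arrays. In the anti-miR-210 arm, 0 to 1 were detected without ischemia and 1 to 2 with it. The summed signal of the 30 tested mitosis genes was 1073 to 1208 on scramble non-ischemic arrays and 7188 to 9492 on scramble ischemic arrays. In the anti-miR-210 arm it was 933.6 to 1243 and 6860 to 9161. Of these 30, 17 met the detection filter only through ischemic arrays. In whole muscle, more cells of a type and more RNA per cell cannot be told apart.

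In ischemic muscle 2 members, Nusap1 and Kif23, were called between the oligonucleotides, both lower after anti-miR-210. Both calls were lost under several other settings. This comparison asks whether the oligonucleotide against miR-210 changed expression in the ischemic tissue. Of the 30 tested members, 0 were called higher and 2 lower, where 0.853% of all genes were called lower and 1.09% in either direction. The log2 difference was negative for 23 and positive for 7 members, with a median of −0.15 against 0.01 over all genes. The median was 0.05 with cyclic loess in place of quantile normalization. With plain median scaling, where the median of all genes itself moved by 0.60, it was 0.76, and 21 members were called higher and 0 lower. Arrays of the 2 groups did not overlap for 1 member, Nusap1, and 2.87% of all genes lay wholly lower. Outside the 2 calls, 95% intervals of the difference reached from −0.94 to 0.83 over the members, so differences within those intervals remain possible. Kif11, higher after anti-miR-210 by 0.49 (95% interval 0.15 to 0.83, adjusted p = 0.137), was called without scramble ischemic replicate 2 (0.63, adjusted p = 0.0417).

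Nusap1 read 7.93 to 8.29 on the scramble and 7.22 to 7.61 on the anti-miR-210 ischemic arrays. The difference was −0.66 ± 0.13 (95% interval −0.93 to −0.39, adjusted p = 0.026). It lost its call when any 1 of scramble ischemic replicates 3 and 4 or anti-miR-210 ischemic replicates 2 and 3 was left out (adjusted p = 0.0578 to 0.106), and under plain median scaling it was 0.37, positive but below the shift of all genes. Only 1 of the 4 Nusap1 probes was detected on every ischemic array.

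Kif23 differed by −1.50 ± 0.34 (95% interval −2.21 to −0.80, adjusted p = 0.0408), with overlapping groups, since anti-miR-210 replicate 4 at 9.46 lay among the scramble arrays. Leaving out any 1 of scramble ischemic replicates 1, 3 and 4 or anti-miR-210 ischemic replicates 1, 2 and 3 ended the call (adjusted p = 0.0611 to 0.146). Neither gene was called with cyclic loess, array brightness as a covariate, replicate number as a block, or the groups compared alone. Without the 3 arrays the planned setting leaves out for liver transcripts the adjusted p was 0.0645 for Nusap1 and 0.0733 for Kif23, and without all 4 it was 0.0614 and 0.0712, so that neither was called. Without anti-miR-210 replicate 4 the difference was −1.98 (adjusted p = 0.000136). A second responding Kif23 probe did not share it, with means of 6.86 after scramble and 6.69 after anti-miR-210, and the third was undetected on all 19 arrays. A probe carrying KNSL5, an older name of Kif23 outside the naming rule, was detected on every array with means of 6.54 and 7.66 in scramble and anti-miR-210 ischemic muscle, the opposite order. Between the same arrays, neutrophil markers read lower after anti-miR-210 for 5 of 5 genes (median log2 difference −0.96, 0 called) and endothelial markers for 4 of 5 (median −0.32, 0 called). Macrophage markers read higher for 5 of 6 (median 0.64, 1 called, Itgam), fibroblast markers for 5 of 5 (median 0.54, 0 called) and muscle fibre markers for 3 of 6 (median 0.17, 0 called). Their part in the Nusap1 and Kif23 differences was not tested.

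**Figure D3:**
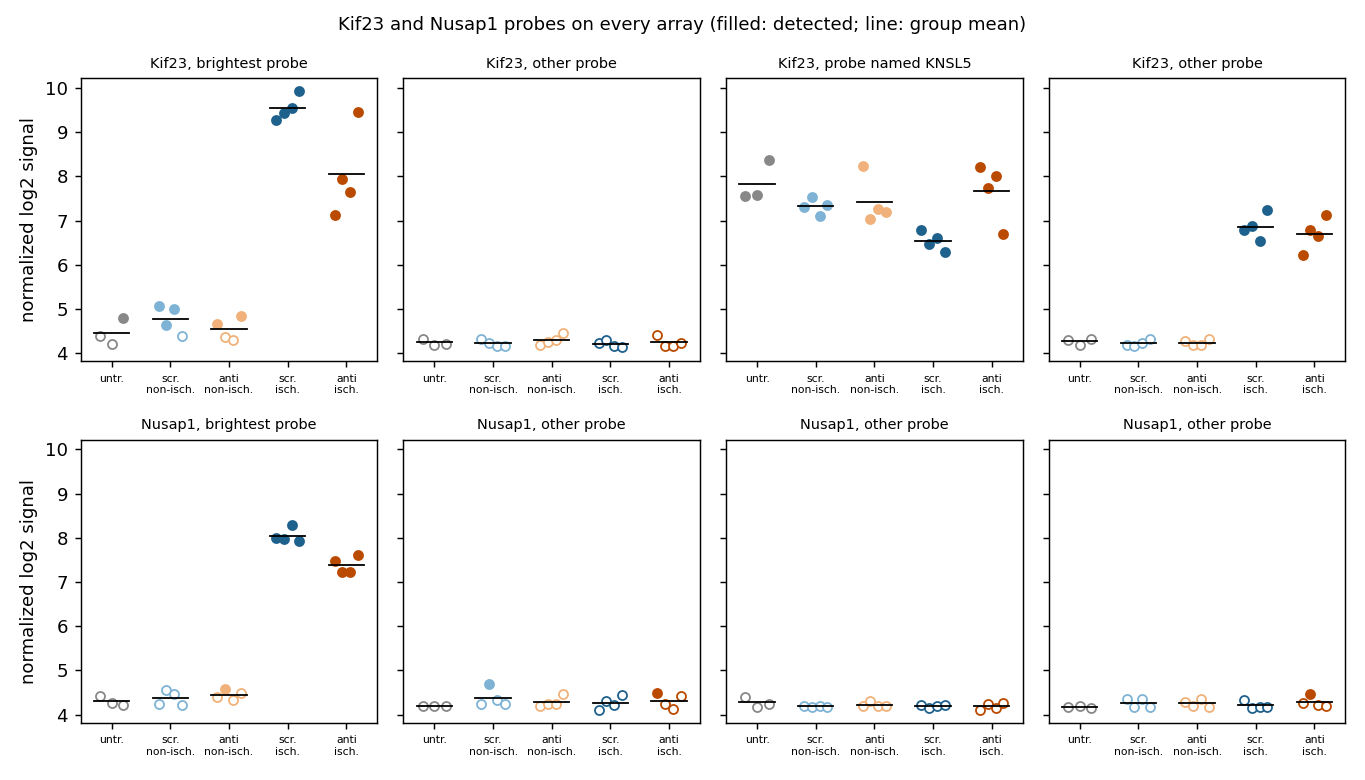
Normalized log2 signal (y axis) of every probe of Kif23 (top, with the probe named KNSL5) and Nusap1 (bottom) on each array by group, filled where detected, with a line at the group mean. The lower anti-miR-210 ischemic signal appears for the brightest probe of each gene, while the second responding Kif23 probe has ischemic means of 6.86 and 6.69 and the KNSL5 probe 6.54 and 7.66 (scramble first).

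The difference between the ischemia responses of the 2 arms, tested as an interaction, was called by limma for 0 of the 30 members, 2 of them having an unadjusted p under 0.05, and for 0.0205% of all genes. It was −0.74 for Nusap1 (adjusted p = 0.343) and −1.26 for Kif23 (adjusted p = 0.495), and Kif23 passed, of the arrays left out in turn, only without anti-miR-210 ischemic replicate 4 (adjusted p = 0.0155). A difference in response is therefore not shown for either gene over all arrays. Melk and Tpx2, called in 1 arm only, had interaction values of −0.15 and −0.11 (adjusted p = 0.872 and 0.939).

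**Figure D4:**
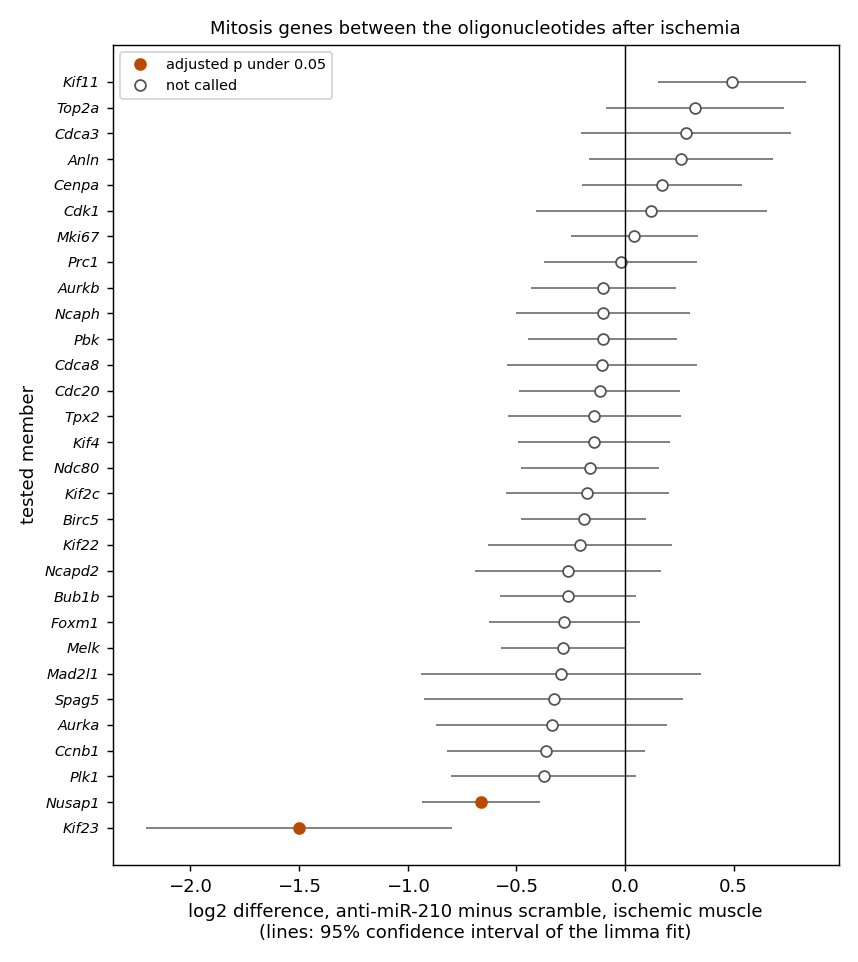
Log2 difference between anti-miR-210 and scramble in ischemic muscle (x axis, lines are 95% intervals) for the 30 tested members, filled where the adjusted p was under 0.05. Nusap1 (−0.66) and Kif23 (−1.50) are filled; the other intervals span between −0.94 and 0.83.

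The 5 mitotic genes listed here as reported as miR-210 targets in human cells were all tested, and limma called 0 between the oligonucleotides in ischemic muscle, where 1.09% of all genes were called; 1 of the 5, Fam83d, had an unadjusted p under 0.05. Under plain median scaling, where all genes shifted by 0.60, Fam83d (0.80, adjusted p = 0.00419) and Bub1b (0.68, adjusted p = 0.0199) were called higher. Plk1 differed by −0.37 (95% interval −0.80 to 0.05, adjusted p = 0.378) and Bub1b by −0.26 (95% interval −0.58 to 0.05, adjusted p = 0.403), both lower after anti-miR-210, but both were positive under plain median scaling, at 0.64 and 0.68, close to the shift of all genes. Cdc25b, a phosphatase that activates Cdk1, differed by −0.12 (95% interval −0.48 to 0.24), and Ccnf, cyclin F, by −0.09 (95% interval −0.43 to 0.24). Fam83d, a spindle protein, differed by 0.31 (95% interval 0.03 to 0.60, adjusted p = 0.248). With ischemia all 5 were called higher after scramble and 3 after anti-miR-210, where 27% and 26.5% of all genes were. All 5 were undetected on every scramble non-ischemic array, and with bounds in place of changes their median there was 0.22. Plk1 and Bub1b met the detection filter only through ischemic arrays, so these counts support nothing. Cdc25b, Ccnf and Fam83d stayed close to background. The Cdc25b call after scramble was lost without any 1 of non-ischemic replicates 2, 3 and 4 and ischemic replicates 2 and 4 (adjusted p = 0.0564 to 0.146), and one after anti-miR-210 appeared without non-ischemic replicate 4 (adjusted p = 0.0462). E2f3, also a reported target of miR-210, differed by 0.29 (95% interval 0.01 to 0.57, adjusted p = 0.294), higher after anti-miR-210, and was called under plain median scaling (0.90, adjusted p = 0.0042); it changed with ischemia by 0.16 after scramble (adjusted p = 0.337) and 0.63 after anti-miR-210 (adjusted p = 0.000584).

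Without ischemia no mitosis gene passed the test between the oligonucleotides or against untreated muscle. Between anti-miR-210 and scramble, limma called 0 of the 30 members, 0 had an unadjusted p under 0.05, and 0.0205% of all genes were called. Log2 differences lay between −0.29 and 0.14. Against untreated muscle, 0 members were called after scramble, where 2.87% of all genes were, and 0 after anti-miR-210, where 5.68% were. In each of these, 3 members had an unadjusted p under 0.05 in limma. Log2 differences there ran from −0.52 to 0.84 and from −0.58 to 0.91, and for most of the members both groups were at or near background, so a change could not be seen. Without untreated replicate 1, Cenpa was called lower after anti-miR-210 than in untreated muscle (−0.80, adjusted p = 0.0137). The untreated arrays then left, replicates 2 and 3, had summed liver signals of 13636.5 and 33564, against 3452 on replicate 1. Cenpa was also called lower there under plain median scaling (−1.03, adjusted p = 0.048). Without anti-miR-210 non-ischemic replicate 4, Spag5 was called higher than in untreated muscle (1.14, adjusted p = 0.0387).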

How the data were processed

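Total RNA of 19 gastrocnemius samples was measured on Illumina bead arrays. The deposited probe table gives, per the file headers, an average bead intensity for each of 45281 probes and a detection p-value, the probability that the signal is background, with no normalization between arrays. A second deposited table holds intensity values quantile normalized by the authors on a linear scale, as its equal distributions over arrays show, and served as an alternative. The scanner software and the authors' settings are not given in the sources used here.

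Intensities were background corrected with normexp, quantile normalized and log2 transformed with neqc of limma 3.58.1 in R 4.3.3 (offset 16, negative controls inferred from detection p-values), on the raw values the authors deposited. Probes detected (p under 0.05) on at least 3 of 19 arrays were kept (21083), names were updated through RefSeq symbols, and the brightest probe by its mean over all arrays stood for each of 14648 genes. One limma fit held 5 group means over all arrays, with empirical Bayes variances and Benjamini-Hochberg adjustment over all genes, and a call means an adjusted p under 0.05. Adjusted p-values in the text are from this fit unless an array or setting is said to be left out or changed. The number of arrays limits the precision. The code was tested on simulated data. Promoter and microRNA sequences came from RefSeq tables of GRCm38.p6, and motifs were searched with Python 3.11.15.

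The members, the other gene lists, the marker lists and the rule for named genes were chosen with earlier results of these data known. By that rule, values on every array are given for the 3 members of each role with the highest mean of both ischemia changes, for tested members called in neither ischemia comparison, and for members called in any other comparison. Of other lists, up to 4 called genes with the highest and up to 2 with the lowest mean change are named, with all listed miR-210 targets. The alternatives were the authors' normalized values, no background correction, cyclic loess, plain median scaling, an offset of 50, no filter and a stricter filter on dim probes, the mean of all probes, older symbols accepted, the groups compared alone, array brightness as a covariate, a replicate block, 3 of the 4 arrays with liver transcripts left out, all 4 left out (chosen after seeing the data), and each array left out in turn.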

Additional observations from a re-analysis of the deposited data

Results flagged for a closer look

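In groups of 4 arrays, all with the member's probe detected, a member was looked at again where 1 array lay apart from the other 3 by more than Dixon's 95% critical value, which chance alone passes in about 1 of 20 groups. Of 68 such groups over the 30 tested members, 7 stood out. Cdk1 read 6.19 on scramble ischemic replicate 3 against 7.58 to 7.86 on the others of its group, and Mki67 read 7.36 on the same array against 7.86 to 7.93. Ncapd2 read 5.96 on scramble non-ischemic replicate 3 against 5.53 to 5.57, and 6.11 on anti-miR-210 non-ischemic replicate 1 against 5.43 to 5.54. Cenpa read 6.33 on anti-miR-210 non-ischemic replicate 3 against 6.72 to 6.78. Aurkb read 5.97 on anti-miR-210 ischemic replicate 4 against 6.23 to 6.27, and Cdca3 read 7.53 on anti-miR-210 ischemic replicate 1 against 8.38 to 8.51. Leaving out any of these arrays changed no ischemia call of these 6 genes.

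One probe outside the naming rule carried a signal of a member: BRRN1, an older name of Ncaph, had a mean of 6.03 in scramble ischemic and 6.32 in anti-miR-210 ischemic muscle, and single non-ischemic arrays read 4.35 to 4.68 after scramble and 4.27 to 4.64 after anti-miR-210.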

How the results depend on the processing

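The counts of members called higher with ischemia, 29 and 27, were 29 and 27 with the replicate block as well, 26 and 27 with the brightness covariate, 26 and 29 with median scaling, and 26 to 29 after scramble and 26 to 29 after anti-miR-210 over all settings, which includes 27 to 29 and 26 to 27 with single arrays left out. After scramble the brightness covariate ended 11 of the calls of the 66 genes named here, members Melk, Tpx2 and Spag5 among them, and median scaling ended 10, among them the same 3. Leaving out 3 or all 4 arrays with liver transcripts ended the Melk, Tpx2 and Haus1 calls there. Between the oligonucleotides in ischemic muscle the count called higher was 0 to 1 with single arrays left out (Kif11 without scramble ischemic replicate 2, 0.63, adjusted p = 0.0417) and 21 under median scaling, and the interaction gave 7 there, where all genes shifted by 0.60 and 0.74. The 2 lower calls became 0 with cyclic loess, the groups alone, the brightness covariate, the replicate block (all genes called falling from 160 to 98) and without 3 or 4 of the liver arrays, 1 without a filter, with the mean of probes or with older symbols, and 0 to 2 with single arrays left out, over which the calls of all genes ran from 17 to 1180. Against untreated muscle the count after anti-miR-210 was 0 to 1. Signs turned as follows. With median scaling, Aurka was −0.56 after scramble and 0.32 after anti-miR-210, Pds5b 0.045 after anti-miR-210, and between the oligonucleotides Plk1 was 0.64, Cdc25b 0.18, Ccnf 0.20, Bub1b 0.68 and Nusap1 0.37, with 0.30 for the Nusap1 interaction. With cyclic loess, Cdc25b was 0.023, Ccnf 0.11 and Bub1b 0.049. With the brightness covariate, Aurka was −0.34 and Ccnf 0.023. With the mean of probes, Bub1b was 0.14 and E2f3 −0.13 after scramble. Without 3 or 4 of the liver arrays Aurka was −0.086 or −0.085. With older symbols Kif23 was −0.79 after scramble, 1.12 between the oligonucleotides and 1.02 in the interaction, since the KNSL5 probe is then its brightest. With single arrays left out, Aurka after scramble ran from −0.086 to 0.23 and Smc3 from −0.33 to 0.15, and between the oligonucleotides Cdc25b ran from −0.28 to 0.041 and Ccnf from −0.26 to 0.088. The cause of these changes was not tested. Replicate numbers are shared by the groups, and non-ischemic and ischemic arrays of a number correlated at 0.05 to 0.24 in their deviations. All 8 correlated best with their own number, though not all above 0.1. The labels do not say that a number marks a mouse, so the main fit took no pairs. The replicate block also joins equal numbers of the 2 oligonucleotides, whose ischemic arrays correlated at −0.29 to 0.30. A call lost under the block therefore does not speak to pairing within an arm. Whether the numbers mark shared mice or shared handling was not tested.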

Other observations

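On the ischemic anti-miR-210 arrays the brightest Kif23 probe and the probe named KNSL5 ran in opposite order: replicate 4 read 9.46 for the first and 6.69 for the second, while replicate 1 read 7.14 and 8.21. Whether the KNSL5 probe reads the same transcript was not tested.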
